A study of Sus scrofa with 2 samples.

Results

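The calcium handling genes described here are S100G, TRPV5, STC1 and SLC24A4, a set of 4 genes given by symbol, and all 4 were found among the 26881 gene rows of the deposited matrices, of which 10753 carry a symbol. The study made 2 droplet single-cell RNA libraries from endometrium, the lining of the uterus, taken from artificially inseminated Yorkshire sows. Its design sets 1 sow at day 13 of gestation, the receptive stage at which the lining can accept embryos, beside 1 sow at day 7, the stage before it, both 3 years old. The sample labels name the libraries endometrium2 and endometrium1 and do not say which came from which day, and here they stand as library 2 and library 1 without a stage. The names of the deposited files do carry stage words, but a file name is not a sample label and was not used to assign a day. Each library is 1 sample, so the differences below lack a replicate check, no test of a difference between libraries was possible, and the animal, the stage and the library cannot be told apart.

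Epithelia move calcium through their cells in steps. A channel in the membrane facing the lumen lets calcium in, a binding protein carries it through the cytosol, and pumps and sodium-driven exchangers push it out. TRPV5 encodes such a calcium-selective entry channel, best known from the kidney. S100G encodes a small cytosolic calcium-binding protein, known in intestine and uterus and there controlled by vitamin D or sex steroids. SLC24A4 encodes an exchanger that trades sodium for calcium and potassium. STC1 encodes stanniocalcin-1, a secreted glycoprotein named after the hormone that lowers blood calcium in fish, and in the pig uterus it is known from the luminal epithelium around implantation. Endometrial epithelium has a luminal sheet facing the cavity, glands that secrete into it, and ciliated cells among both.

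The deposited tables list S100G as ENSSSCG00025076777, TRPV5 as ENSSSCG00025060239, STC1 as ENSSSCG00025025332 and SLC24A4 as ENSSSCG00025000480, each on a single row. RefSeq assembly Sscrofa11.1 places S100G on chromosome X between CTPS2 and SYAP1, STC1 on chromosome 14 between NKX2-6 and ADAM28, and SLC24A4 on chromosome 7 between CPSF2 and RIN3. TRPV5 lies on chromosome 18 beside TRPV6, its closest relative, and no deposited row carries the symbol TRPV6. How reads shared by these paralogs were split is not given in the sources used here, so the TRPV5 counts are uncertain to that extent. The genome build of the matrices is not given either, and no coordinates are printed.

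Library 2 held 15093 barcodes with 87514969 UMIs, that is, distinct RNA molecules counted, and library 1 held 10045 barcodes with 45388759 UMIs. The median barcode had 4335 UMIs in library 2 against 3431 in library 1, and 48 barcode sequences occurred in both. After filtering and removal of called doublets, 12673 cells of library 2 and 8930 cells of library 1 remained. Clustering made without the 4 genes gave 30 clusters, 29 of which were named from marker genes. Epithelial-like cells numbered 4324 in library 2, which is 34.1% of its cells, and 230 in library 1, which is 2.58%. A ciliated cluster added 574 cells, all of library 2, whereas 36 ciliated cells of library 1 stayed among its epithelial-like cells.

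Levels are given as counts-per-million (CPM), the UMIs of a gene scaled to the summed UMIs of the cell group, with exact Poisson 95% intervals that cover counting error only. They compare 1 gene between groups of cells and not the genes with each other. Cells were dissociated before capture, so an epithelial share can reflect what the digestion released, and this was not tested. In summed counts, fewer expressing cells and less RNA per cell cannot be told apart, and the values per cell given below bear on this.

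Counted over every barcode, S100G had 89 UMIs in library 2 against 203 in library 1, and TRPV5 had 405 in library 2 against 21 in library 1. STC1 had 857 UMIs in library 2 against 947 in library 1. SLC24A4, the exchanger, had 12766 UMIs in library 2 against 34 in library 1. TRPV5, S100G and STC1 are therefore rare transcripts in this tissue as sequenced, and their values rest on few molecules, whereas SLC24A4 was plentiful in library 2 alone.

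Across the whole epithelial-like class, 3 of the genes were higher and 1 was lower in library 2 than in library 1. SLC24A4 was at 341 CPM (7951 UMIs) in library 2 and at 3.73 CPM (12 UMIs) in library 1 (log2 ratio 6.52, interval 5.71 to 7.47). S100G was at 1.54 CPM (36 UMIs) in library 2 and at 50.3 CPM (162 UMIs) in library 1 (log2 ratio -5.03, interval -5.59 to -4.50). The entry channel TRPV5 was at 13.6 CPM (318 UMIs) in library 2 and at 5.59 CPM (18 UMIs) in library 1 (log2 ratio 1.29, interval 0.60 to 2.06). STC1 was at 7.55 CPM (176 UMIs) in library 2 and at 1.55 CPM (5 UMIs) in library 1 (log2 ratio 2.28, interval 1.03 to 3.92). Of all 8782 genes measured with at least 10 UMIs in these cells, 22.1% were at least 2-fold higher and 24.2% at least 2-fold lower in library 2, so a difference of that size is common between these libraries. The low side of 3 of these ratios was near the level of free RNA read in T or NK cell-like cells of the same library, which had S100G at 1.33 CPM in library 2, and STC1 at 1.46 CPM and SLC24A4 at 2.92 CPM in library 1. When the luminal-like cells described below are left out, the ratio of TRPV5 is -0.97 and that of STC1 is near 0, at -0.077. In library 1, TRPV5 was then found in 9 cells and STC1 in 3 cells, so no direction is read from these values.

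**Figure D1:**
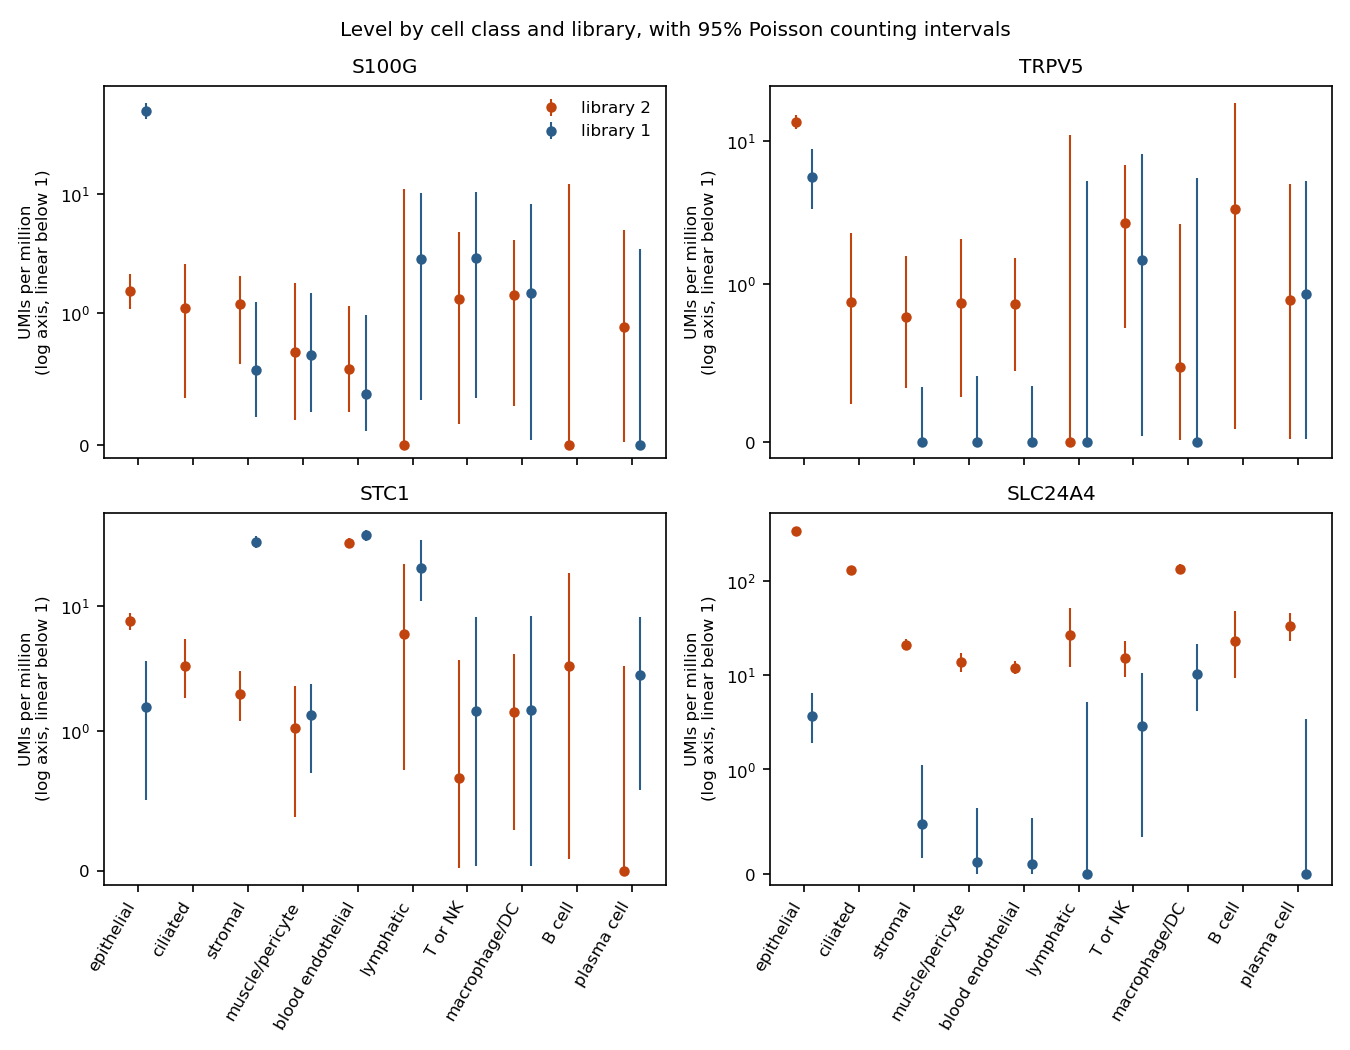
Level of each gene, in CPM on an axis that is logarithmic above 1 and linear below, in cell classes of at least 50 cells, library 2 in orange left of library 1 in blue. Points are sums over the cells of a class and bars are 95% Poisson intervals for counting error; S100G stands out at 50.3 in library 1 epithelium, SLC24A4 at 341 in library 2 epithelium, and STC1 lies above 30 in blood vessels of both libraries and in library 1 stroma.

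Reclustering the epithelial and ciliated cells gave 14 subclusters, and these showed where each gene lay. Subcluster 8 of library 2 (45 cells) and subcluster 13 of library 1 (15 cells) were called luminal-like by the level of 10 luminal markers, not by how many were detected. Their mean log2 fold for these markers was 1.697 in subcluster 8 and 1.195 in subcluster 13, and below 0 in each of the other 12 subclusters. Subcluster 8 detected 9 of the markers and subcluster 13 detected 7, while the gland subcluster 1 of library 2 and subcluster 11 of library 1 detected 9 each. Gland markers, 9 of 11 detected in library 2 and 6 of 11 in library 1, summed to 33048 CPM in library 2 and 227 CPM in library 1 luminal-like cells, where the luminal markers summed to 28650 CPM in library 2 and 2644 CPM in library 1. The part of gland transcripts in the differences was not tested. UPTI, the trypsin inhibitor gene uterine plasmin/trypsin inhibitor that served as a luminal marker, was at 26931 CPM in library 2 and 1388 CPM in library 1 luminal-like cells. SPP1, which encodes the attachment protein osteopontin and was another marker, was at 745 CPM in library 2 and 4.72 CPM (1 UMI) in library 1 luminal-like cells. In the other epithelial and ciliated cells SPP1 was at 5.05 CPM in library 2 and 7.32 CPM (22 UMIs) in library 1. It was therefore not higher in the luminal-like cells of library 1. UPTI alone made up most of the luminal marker sum in library 2. MSX2 was at 0 in the luminal-like cells of library 2, and WNT7B, VTCN1 and SAL1 were at 0 in those of library 1. Markers of the conceptus trophoblast, which could adhere to this surface, were at 0 for 5 of 5 genes in library 2 and were detected for 1 of 5 in library 1. Stromal fibroblast markers, 12 of 15 detected in library 2 and 11 of 15 in library 1, summed to 1443 CPM in library 2 and 4594 CPM in library 1 luminal-like cells, and their part in the differences was not tested.

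TRPV5 was concentrated in the luminal-like cells of library 2. It was at 872 CPM (275 UMIs) in them and at 1.71 CPM (47 UMIs) in the other 4853 epithelial and ciliated cells of that library, so that 77.2% of its 356 UMIs in retained cells came from 45 cells. Of the rest, 15 UMIs lay in subcluster 10, 12 in blood endothelial-like cells and 8 each in subclusters 1 and 5. UMIs of TRPV5 were found in 41 of these 45 cells, with a lowest value of 0, a median of 4 and a highest of 27 per cell. In luminal-like cells of library 1 it was at 33.1 CPM (7 UMIs), with 1 UMI in each of 7 of 15 cells, against 3.66 CPM (11 UMIs) in the other 215 epithelial cells. The luminal-like log2 ratio between libraries was 4.72 (3.66 to 6.05), while the median depth of these cells was 5538 UMIs in library 2 and 13027 UMIs in library 1. Per cell, the range of library 1 (0 to 1) lay inside that of library 2 (0 to 27).

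STC1 followed TRPV5 in the epithelium. It was at 466 CPM (147 UMIs) in the luminal-like cells of library 2 and at 1.60 CPM (44 UMIs) in the other epithelial cells there. In library 1, the luminal-like cells held 1 UMI (4.72 CPM) and the other epithelial cells 4 UMIs (1.33 CPM). With the single UMI set to a floor of 3, the luminal-like log2 ratio was 5.04, and the counting interval was 4.12 to 11.9. Per cell, STC1 ran from 0 through a median of 2 to 19 UMIs in library 2 and was found in 31 of 45 cells, against 1 of 15 cells in library 1. All 31 cells of library 2 with STC1 also had TRPV5, where the product of the single shares gives 28.2 cells. These 31 cells had a median total of 8096 UMIs, against 1452 in the luminal-like cells without STC1. Outside the luminal-like cells, 4 epithelial-like cells of library 2 had both genes, of 29 with TRPV5 and 21 with STC1. There the product of the single shares gives 0.142 cells. The part of depth in joint detection was not tested.

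S100G had the opposite order between libraries in the luminal-like cells. Whether these cells are the same kind in both libraries was not tested. S100G was at 31.7 CPM (10 UMIs) in those of library 2 and at 312 CPM (66 UMIs) in those of library 1. The log2 ratio was -3.30 (-4.42 to -2.33). UMIs of S100G were present in 9 of 45 cells of library 2, with at most 2 per cell, and in 12 of 15 cells of library 1, with a median of 2 and at most 14. The ranges overlap at 0 to 2 UMIs. All 9 cells of library 2 with S100G also had TRPV5, and 6 of the 12 cells of library 1 did. The product of the single shares gives 8.2 cells in library 2 and 5.6 cells in library 1. The 9 cells of library 2 had a median total of 12347 UMIs, against 3528.5 in its luminal-like cells without S100G. Within each library S100G was nonetheless higher in luminal-like than in other epithelial cells, which were at 1.13 CPM in library 2 and 31.9 CPM in library 1.

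**Figure D2:**
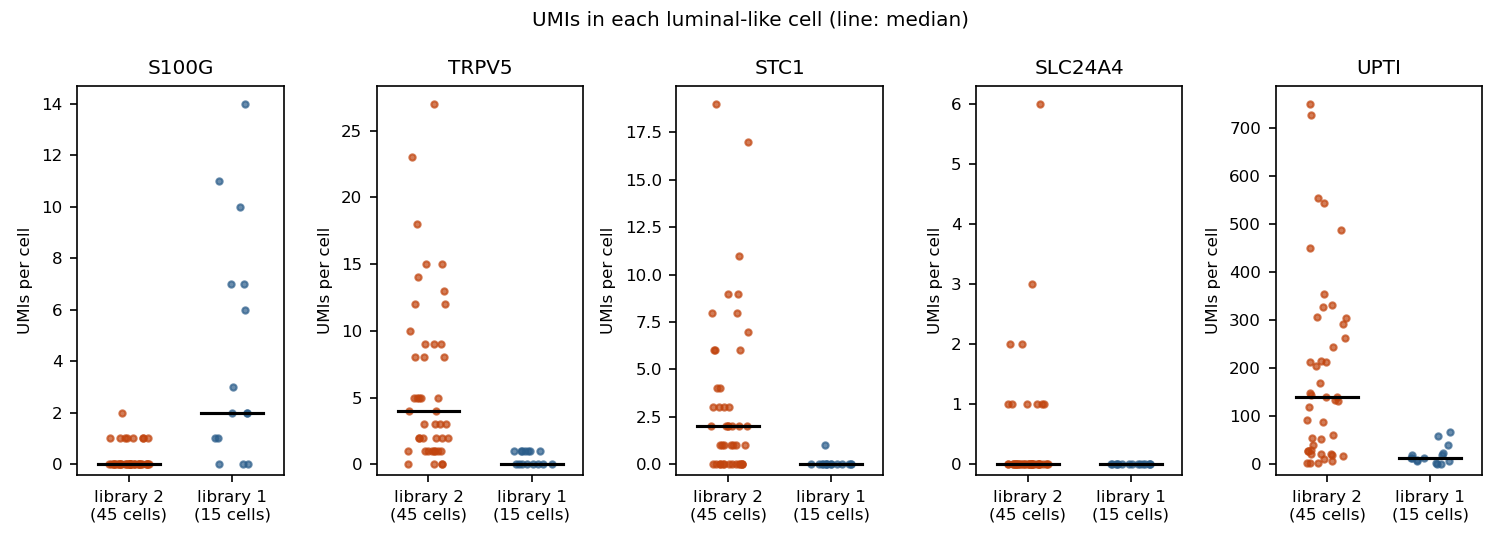
UMIs per cell of the 4 genes and of the luminal marker UPTI in the 45 luminal-like cells of library 2 (left of each panel) and the 15 of library 1 (right); each point is 1 cell and the line is the median. TRPV5 and STC1 reach 27 and 19 UMIs in library 2 and at most 1 in library 1, while S100G reaches 2 in library 2 and 14 in library 1.

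A choice of cells by UPTI alone, without clusters, took mostly the same cells. UPTI was also a marker that named the luminal-like cells, so similar values are not a separate check. Taking all retained cells with at least 10 UPTI UMIs gave 51 cells of library 2, of which 41 were luminal-like, and 9 cells of library 1, all luminal-like. TRPV5 was found in 43 of the 51 cells with 285 UMIs and STC1 in 36 with 160 UMIs, while in library 1 they were found in 3 and 1 of the 9 cells. S100G was found in 9 of 51 cells with 10 UMIs in library 2 and in 7 of 9 cells with 45 UMIs in library 1. With this choice, made after seeing the data, the log2 ratios were 5.20 for TRPV5, 4.37 for STC1 and -3.54 for S100G. In library 1 the TRPV5 ratio rests on 3 UMIs and the STC1 ratio on 1 UMI, set to the floor of 3. The luminal-like cells of library 2 also had CYP24A1, the enzyme that breaks down active vitamin D, at 140 CPM (44 UMIs in 15 cells), against 0.80 CPM in the other epithelial cells. The vitamin D receptor gene VDR had 0 UMIs in luminal-like cells of both libraries, which allows up to 9.51 CPM in library 2 and 14.2 CPM in library 1.

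Besides the luminal-like cells, library 1 had S100G in subcluster 11, 179 cells led by AQP3, a water and glycerol channel gene. There S100G was at 34.6 CPM (28.0 to 42.2), with 96 UMIs in 30 cells and at most 15 in a cell, and the 10 highest cells held 65.6% of them. Cells with S100G were deep, with a median total of 28756.5 UMIs against 5303 UMIs in cells without it. The level was 41.1 CPM (32.8 to 50.9) in the 51 cells of at least 20000 UMIs and 16.4 CPM (8.48 to 28.7) in the 128 shallower cells, so the depth of a cell and its level of S100G went together to some extent. AQP3 itself was at 2688 CPM in the deeper and 2879 CPM in the shallower cells. No subcluster of library 2 outside the luminal-like one exceeded 6.83 CPM, the value of subcluster 4 (6 UMIs in 188 cells).

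SLC24A4 had another distribution, being spread through the epithelium of library 2 and low in its luminal-like cells. These had 60.3 CPM (19 UMIs in 10 of 45 cells), against 309.7 CPM in the other epithelial and ciliated cells. The highest level was in subcluster 4 (188 cells led by NRCAM and CDO1), at 941 CPM (878 to 1007), with UMIs in 157 cells. Subcluster 0 followed at 825 CPM (777 to 875) and subcluster 6 at 477 CPM (432 to 525). Subclusters 4, 0 and 6 all had few UMIs per cell, the medians being 1754, 1066 and 1392. The part of depth in this order was not tested. Subcluster 7 (FH, S100A14) was at 330 CPM and the secretory glands of subcluster 1, led by SLPI and SULT2A1, were at 296 CPM, while subcluster 5 (SAL1) was at 235 CPM. The intervals of each of these neighbours in the order do not overlap, apart from subcluster 9 (53 cells led by immune genes) at 312 CPM, which overlaps those of subclusters 7 and 1, and subcluster 10 (148 cells led by vessel genes) at 229.9 CPM, which overlaps subcluster 5. Ciliated cells were lower, at 36.4 CPM in subcluster 2 and at 181 CPM in subcluster 3.

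In library 1, SLC24A4 was near the limit of detection in every epithelial subcluster. Subcluster 11 was at 3.96 CPM (11 UMIs), the ciliated subcluster 12 had 1 UMI, and the luminal-like cells had 0 of 211790 UMIs, which allows up to 14.2 CPM. Against that floor of 3 UMIs, the luminal-like cells of library 2 were 4.25-fold higher, a log2 ratio of 2.09 with a lower counting limit of 1.65. They held 805 UMIs of the gland gene ACP5 beside 19 of SLC24A4, and the part of free gland RNA was not tested. Without cluster 0, a library 2 cluster of 1488 cells with a median of 1121 UMIs that was named epithelial through PAX8 alone among its leading genes, the epithelial-like log2 ratio was 6.30. Ribosomal protein transcripts took 1.80% to 6.32% of UMIs in the epithelial subclusters of library 2 and 8.95% to 23.5% in those of library 1, and their part in the difference was not tested.

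**Figure D3:**
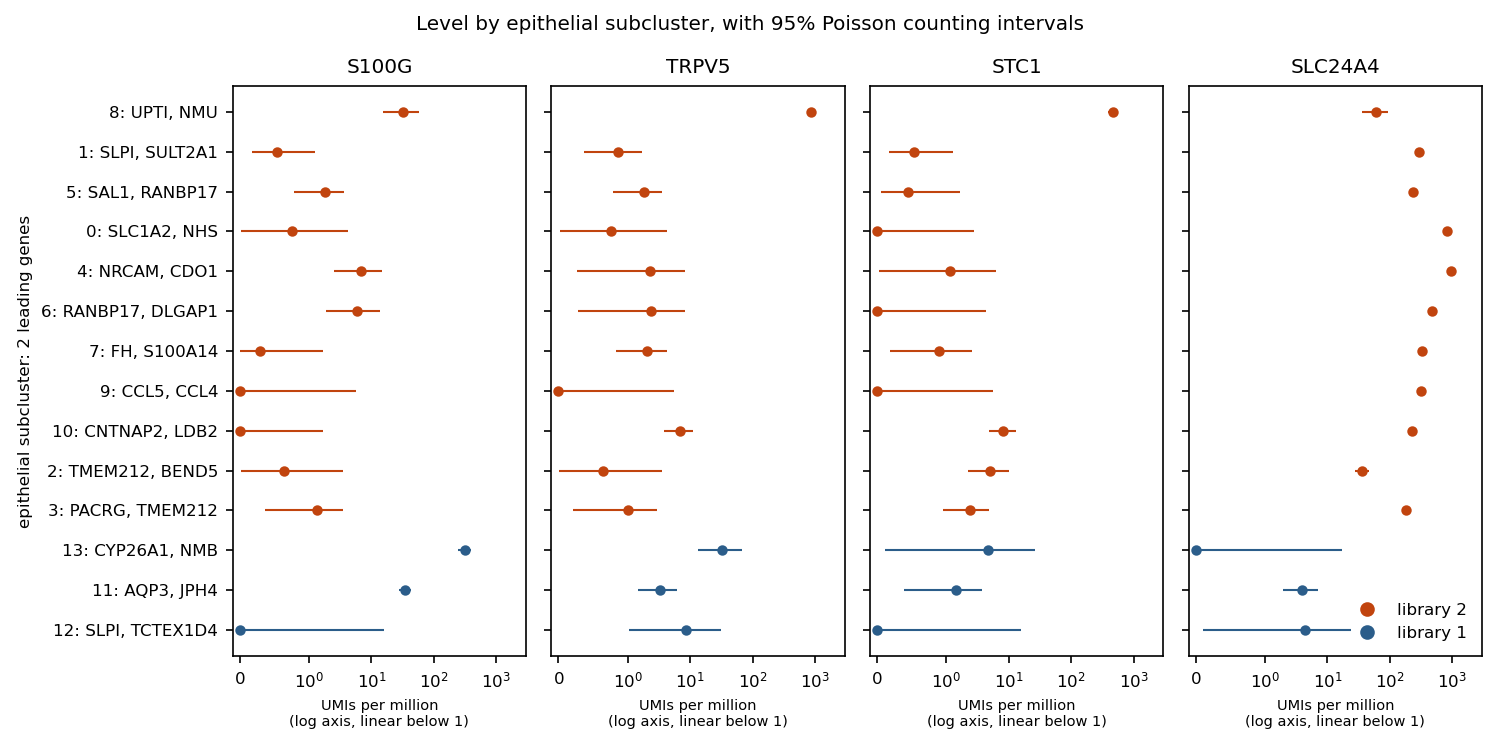
Level of each gene in the 14 epithelial and ciliated subclusters, in CPM on an axis that is logarithmic above 1 and linear below; rows give the subcluster and its 2 leading genes, library 2 (orange) above library 1 (blue), with 95% Poisson intervals. TRPV5 and STC1 stand at 872 and 466 in subcluster 8 of library 2, S100G at 312 in subcluster 13 of library 1, and within library 2 SLC24A4 is lowest in subclusters 2 and 8, at 36.4 and 60.3.

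Shares of cells depend on depth and on free RNA in the droplets, which gives single UMIs to cells that do not express a gene. SLC24A4 was found in 54.8% (53.3 to 56.3, Clopper-Pearson) of epithelial-like cells of library 2 and in 4.35% (2.104 to 7.85) of those of library 1. T or NK cell-like cells, which should lack these epithelial transcripts, had it in 2.40% in library 2 and 0.421% in library 1. The median depth was 3315 UMIs in epithelial-like and 1667 UMIs in T or NK cells of library 2, and 7128 UMIs and 1318 UMIs in library 1. S100G was found in 0.786% (0.545 to 1.10) of epithelial-like cells of library 2, against 0.240% of its T or NK cells, and in 18.3% (13.5 to 23.9) of those of library 1, against 0.421% of its T or NK cells. TRPV5 was in 1.62% and STC1 in 1.20% of epithelial-like cells of library 2, and in 6.96% and 1.74% of those of library 1. T or NK cells had TRPV5 in 0.480% and STC1 in 0.120% in library 2, and each of them in 0.211% in library 1.

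For TRPV5 and STC1 these shares run against the CPM, so no order is read from them. Library 1 cells were deeper, and the luminal-like cells were 45 of 4324 in library 2 and 15 of 230 in library 1, and the part of either in the shares was not tested. With each cell thinned to 1000 UMIs, SLC24A4 remained in 27.3% of epithelial-like cells of library 2 and S100G in 0.274% of library 2 and 1.99% of library 1. TRPV5, STC1 and SLC24A4 were then found in 0 of 201 cells of library 1, which allows shares of up to 1.49%. TRPV5 was then in 0.878% and STC1 in 0.659% of the cells of library 2, both below that limit, so no difference in these shares was detectable at this depth. Within the luminal-like cells, thinning left TRPV5 in 28 of 41 cells of library 2 and 0 of 14 cells of library 1, which allows up to 21.4%.

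Outside the epithelium, TRPV5 and S100G were at or near the level of free RNA. In every other named class of at least 50 cells, TRPV5 was at or below 3.31 CPM in library 2 and 1.46 CPM in library 1, and S100G at or below 1.42 CPM in library 2 and 2.92 CPM in library 1. Each such value rests on at most 12 UMIs.

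STC1 was foremost a vessel transcript by the number of molecules. Blood endothelial-like cells held 437 UMIs of it in library 2 and 381 UMIs in library 1, at 31.7 CPM in library 2 against 36.7 CPM in library 1 (log2 ratio -0.21, interval -0.42 to -0.01). The levels were graded among vessel types. Clusters led by CLDN5, GJA5 and SEMA3G, genes of arterial endothelium, were highest, at 73.1 CPM (60.9 to 87.0) in cluster 9 of library 2 and 104 CPM (89.9 to 120) in cluster 25 of library 1. The FLT1 and KDR cluster 8 of library 2 was at 35.6 CPM (30.8 to 41.0). Clusters led by ACKR1, a gene of venular endothelium, were lower, at 17.7 CPM (14.7 to 21.2) in cluster 7 of library 2 and 22.1 CPM (19.0 to 25.5) in cluster 26 of library 1. The order arterial above ACKR1-type therefore held in both libraries, with intervals that do not overlap.

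The stroma differed. Stromal fibroblast-like cells had STC1 at 1.97 CPM (20 UMIs) in library 2 and at 32.2 CPM (338 UMIs) in library 1 (log2 ratio -4.03, interval -4.76 to -3.38). Of the library 1 molecules, 316 lay in cluster 15, led by CRABP1, at 57.1 CPM (51.0 to 63.7) in 213 of 1279 cells, and 22 in cluster 28, led by ANPEP, at 4.43 CPM. Different clusters made up the stroma of the libraries, clusters 4 and 10 in library 2, where STC1 was at 0.93 and 3.83 CPM. The unnamed dividing cells were at 10.7 CPM (8 UMIs) in library 2 and 35.4 CPM (33 UMIs) in library 1, and lymphatic endothelial-like cells at 5.97 CPM (2 UMIs) in library 2 and 19.9 CPM (14 UMIs) in library 1.

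SLC24A4 was also found in macrophage-like cells. The class, which includes monocytes and dendritic cells, was at 134 CPM (283 UMIs) in library 2 and 10.4 CPM (7 UMIs) in library 1 (log2 ratio 3.69, interval 2.63 to 5.02). Its UMIs were in 161 of 521 cells of library 2, at most 8 per cell in the C1QA and C1QB cluster 16 (122 CPM) and 7 in cluster 17, led by AIF1 and carrying FLT3 and XCR1 (193 CPM). The other classes outside the epithelium in library 2 lay between 10.7 and 33.1 CPM. SLC24A4 was also set beside ACP5, an abundant gland transcript of library 2. ACP5 does not stand for free gland RNA alone. In library 1 it was at 4.66 CPM in epithelial-like cells and at 147 CPM in T or NK cells. Macrophage-like cells there had it at 116 CPM and lymphatic endothelial-like cells at 390 CPM. The part of free gland RNA in the ratios below was not tested. There were 12.5 SLC24A4 UMIs per 100 ACP5 UMIs in macrophage-like cells, 1.95 in epithelial-like cells, 0.695 in T or NK cells, and 1.25 to 2.44 in the remaining classes. In library 1 both genes were scarce. There the macrophage-like cells had 7 SLC24A4 and 78 ACP5 UMIs, a ratio of 8.97 per 100, against 12.5 in stromal fibroblast-like cells (5 and 40 UMIs), 80 in epithelial-like cells (12 and 15 UMIs) and 1.98 in T or NK cells (2 and 101 UMIs), so the ratio did not set the macrophage-like cells apart in that library.

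Each gene had a different set of closest genes. Likeness was measured as the Pearson correlation of log2(CPM + 20) over 20 sums of a class in a library, among 4023 genes reaching 100 CPM, and is a description, since the sums share libraries and depth. S100G was nearest to OPTC (0.99), CYP26A1, which breaks down retinoic acid (0.99), PDZK1, a membrane scaffold (0.98), ATP6V0D2, a proton pump subunit (0.97), and WIF1, a secreted WNT inhibitor (0.95). Its sum was at 50.3 CPM in library 1 epithelial-like cells and at or below 2.92 CPM elsewhere, so a single sum carries these correlations. CYP26A1 was at 22.2 CPM in luminal-like cells of library 2 and 2894 CPM in those of library 1. In subcluster 11 it had 4 UMIs in the deeper cells and 0 in the others, whereas PDZK1 was there at 326 and 246 CPM.

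TRPV5 was nearest to UPTI (0.92), followed by PLPP4 (0.83), SUCO (0.81), UCHL5 (0.81) and CDO1 (0.80). It reached at most 13.6 CPM in these sums, so its correlations rest on small values. In library 2, PLPP4 was at 12.7 CPM in luminal-like and 125.5 CPM in all epithelial-like cells. SUCO and UCHL5 were also lower in the luminal-like cells, while UPTI and CDO1 were higher there. The class sums do not resolve the luminal-like cells. SLC24A4 was nearest to PAX8, an epithelial transcription factor (0.94), RBM47, an RNA-binding protein (0.93), GREB1L (0.92), FGFR2, a fibroblast growth factor receptor (0.92), and SLC20A1, a phosphate transporter (0.91). STC1 was nearest to ENPP2 (0.85), PALMD (0.83), SEMA3G (0.82), ACVRL1 (0.81) and SULT1C4 (0.81). Of these, ENPP2 was at 170 CPM in blood endothelial-like cells of library 2 and 244 CPM in those of library 1, and had 0 UMIs in luminal-like cells of library 2. The class sums thus place STC1 with vessel genes. Over 42 clusters and subclusters, a scale chosen after seeing the data, STC1 was nearest to MET (0.79) and SPP1 (0.77), and TRPV5 to SFN (0.99) and NMU (0.99). SFN, NMU and SPP1 are leading genes of subcluster 8, and SPP1 was a marker used to name it. TRPV5 was at 872 CPM in that subcluster, so its correlations at this scale rest largely on a single sum of 45 cells.

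The wider calcium list of 96 genes had 64 with a symbol, and 58 of these, the 4 genes included, had at least 10 UMIs in epithelial-like cells. Of the 58, 21 were at least 2-fold higher in library 2, 13 were at least 2-fold lower and 24 were neither, with a median log2 ratio of 0.07. Over all 8782 genes the median was -0.08, with 1942 genes (22.1%) higher and 2124 (24.2%) lower. The counts by role below stand beside these shares. Without the 4 genes, 18 of 54 were higher and 12 lower, with a median of 0.03. TMM scaling would add 0.31 to these log2 ratios, except where the floor of 3 UMIs holds a ratio at 0, as for VDR.

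Among 12 measured entry channel genes, 7 were higher and 2 lower. TRPM7, a channel for magnesium and calcium, was at 592 CPM in library 2 and 69.0 CPM in library 1, CACNA1D, a voltage-gated calcium channel, at 237 CPM in library 2 and 22.4 CPM in library 1, and STIM1, a sensor of calcium stores, at 74.1 CPM in library 2 and 10.9 CPM in library 1. TRPC1 was at 72.9 CPM in library 2 and 31.1 CPM in library 1. The store-operated channel ORAI3 and the polycystin channel PKD2 were the lower pair. TRPM6, a magnesium channel related to TRPM7, differed by less than 2-fold over the class, at 8.02 CPM in library 2 and 7.15 CPM in library 1, but in luminal-like cells it was at 165 CPM in library 2 and 37.8 CPM in library 1, above the other epithelial cells of its own library in both (5.56 and 4.99 CPM).

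Of 10 cytosolic calcium binders, 1 was higher, 5 were lower and 4 were neither, with a median log2 ratio of -1.22. S100A11 was at 209.9 CPM in library 2 and 744 CPM in library 1, and S100A10 at 208 CPM in library 2 and 655 CPM in library 1. S100G, S100A10, S100A11 and S100A4 were at least 2-fold lower in library 2, as were 24.2% of all genes measured. The other measured S100 genes were not. Of these, S100A1 was at least 2-fold higher, at 696 CPM in library 2 and 267 CPM in library 1, and S100A2 and S100A14 were neither. The calmodulin gene CALM3, at 74.2 CPM in library 2 and 119 CPM in library 1, differed by less than 2-fold, as did S100A14, at 285 CPM in library 2 and 152 CPM in library 1. S100A2 was at 24.5 CPM in library 2 and 23.3 CPM in library 1 over the class, while luminal-like cells had it at 1681 CPM in library 2 and 227 CPM in library 1.

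Of 8 extrusion genes, 3 were higher and 1 was lower. The plasma membrane calcium pump gene ATP2B1 was at 168 CPM in library 2 and 72.1 CPM in library 1. In luminal-like cells it was at 162 CPM in library 2 and 56.7 CPM in library 1. ATP2B4, another such pump, was at 53.3 CPM in library 2 and 91.7 CPM in library 1, and in luminal-like cells at 92.0 CPM in library 2 and 467 CPM in library 1. SLC24A1 and SLC24A2, the other measured exchangers of the SLC24 family, had 9 and 26 UMIs in epithelial-like cells of library 2 and 2 and 1 UMIs in those of library 1.

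Genes of the internal stores were 3 higher, 2 lower and 8 neither among 13. The mitochondrial uniporter gene MCU was at 77.8 CPM in library 2 and 14.6 CPM in library 1, its partner MCUB at 72.6 CPM in library 2 and 6.84 CPM in library 1, and the store release channel ITPR2 at 165 CPM in library 2 and 24.9 CPM in library 1. RCN1, a calcium-binding protein of the endoplasmic reticulum, was at 8.62 CPM in library 2 and 96.0 CPM in library 1, and the uniporter subunit SMDT1 at 126 CPM in library 2 and 341 CPM in library 1. Neither mark was passed by ATP2A2, the reticulum pump, at 168 CPM in library 2 and 91.3 CPM in library 1, by ATP2C1, at 85.1 CPM in library 2 and 92.3 CPM in library 1, or by the chaperones CALR, at 161 CPM in library 2 and 268 CPM in library 1, and CANX, at 163 CPM in library 2 and 316 CPM in library 1. RCN2 and SDF4 were near 200 CPM in library 2, at 199.9 and 199 CPM, and at 169 and 119 CPM in library 1, and MICU2 was at 119 CPM in library 2 and 113 CPM in library 1.

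Among 15 hormones, receptors and regulators, 7 were higher and 3 lower. SGK1, a kinase that acts on ion channels, was at 316 CPM in library 2 and 62.1 CPM in library 1, NEDD4L, a ubiquitin ligase that removes channels from the membrane, at 710.0 CPM in library 2 and 310.4 CPM in library 1, and PPP3CA, the calcineurin catalytic subunit, at 56.5 CPM in library 2 and 3.42 CPM in library 1. RAMP1, a receptor partner of calcitonin-like peptides, was at 19.2 CPM in library 2 and 161 CPM in library 1, and RAMP2, at 46.1 CPM in library 2 and 69.9 CPM in library 1, differed by less than 2-fold. PTHLH, which encodes parathyroid hormone-related protein, was at 117 CPM in the luminal-like cells of library 2 (37 UMIs in 10 cells), against 6.58 CPM in its other epithelial cells, and had 0 UMIs in the luminal-like cells of library 1, which allows up to 14.2 CPM.

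Within library 2, 38 calcium list genes, all 4 genes among them, had at least 10 UMIs in the luminal-like cells, and 11 of them were at least 2-fold higher and 5 at least 2-fold lower there than in the other epithelial and ciliated cells. Over all 3905 genes with as many UMIs, 16.2% were higher and 6.84% lower. Within library 1, 24 list genes reached 10 UMIs in the luminal-like cells, S100G being the 1 of the 4 genes to do so, with 7 higher and 3 lower, beside 18.1% higher and 5.66% lower among 2508 genes. A gene reached 10 UMIs in few cells more easily where it was high, and the cells were clustered on many of these genes, so the counts are a description. PPP3CA was at 358 CPM in the luminal-like cells of library 2, against 55.2 CPM in its other epithelial cells. TRPM7, at 222 CPM against 577 CPM, and CACNA1D, at 85.6 CPM against 219.8 CPM, were lower in the luminal-like cells of that library.

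**Figure D4:**
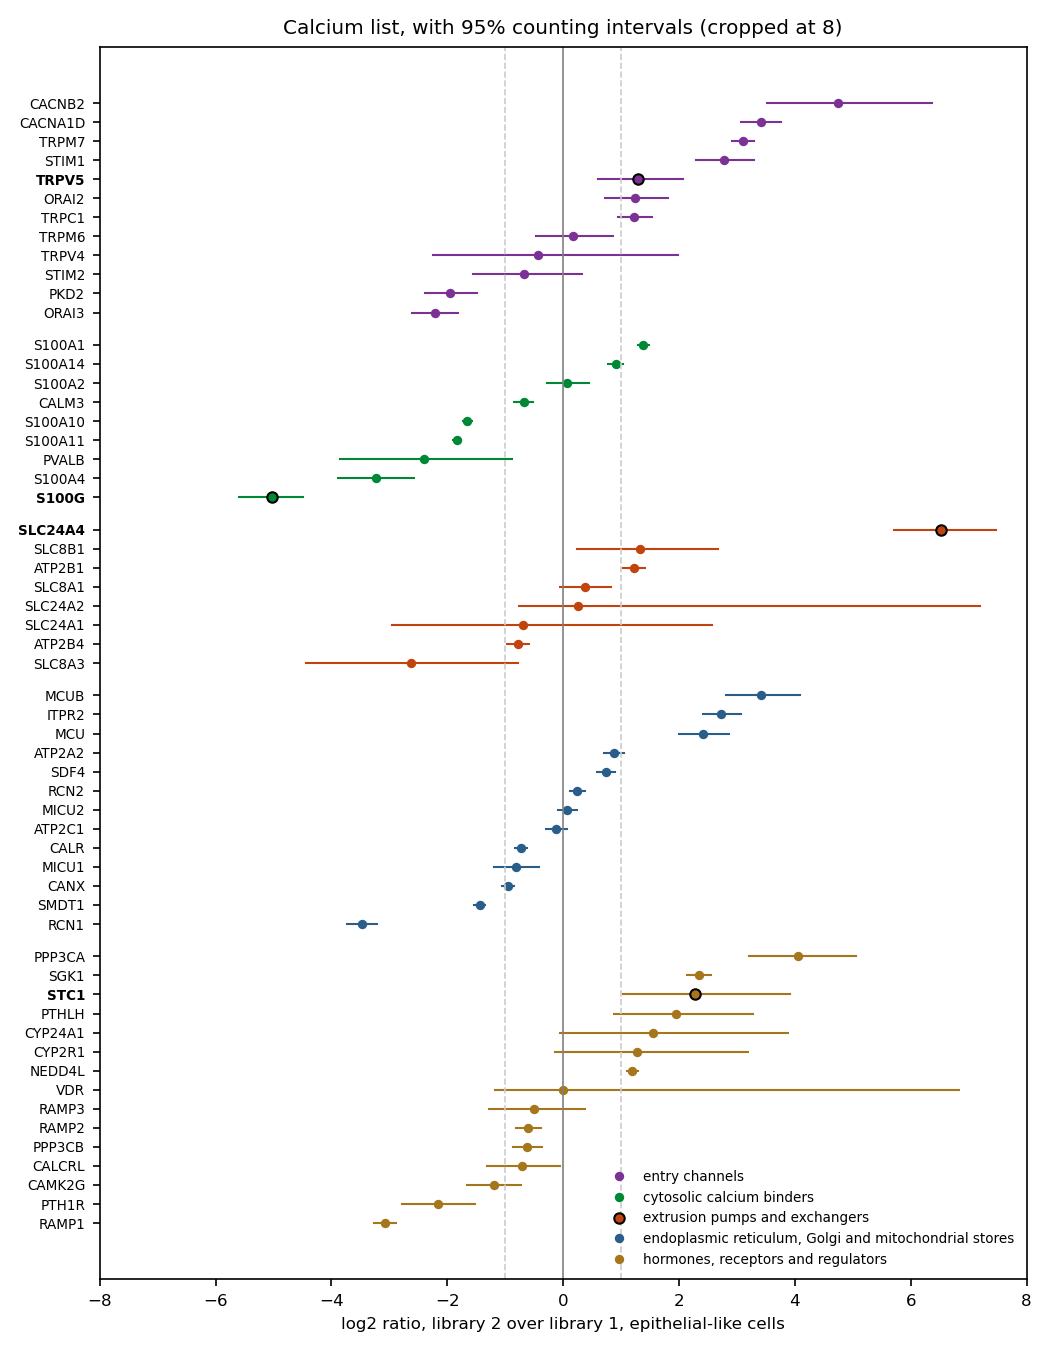
Log2 ratio of library 2 over library 1 in epithelial-like cells for 57 of the 58 calcium list genes with at least 10 UMIs, grouped and coloured by role; lines are 95% counting intervals and dashed lines mark 2-fold. The 4 genes in bold span the list, SLC24A4 highest at 6.52 and S100G lowest at -5.03, with a median of 1.23 for entry channels and -1.22 for calcium binders.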

How the data were processed

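The authors deposited raw UMI counts per gene and barcode, whole numbers made from 10x 3' libraries with Cell Ranger, version 6.1.0 per the file headers and 2.1.1 per the submitters' processing notes. The sources used here give neither the genome build nor whether introns were counted. Rows sharing a symbol were summed. Barcodes needed 500 UMIs and 200 genes, which removed 1 barcode of library 2 and 5 of library 1. Scrublet (scanpy 1.11.5) called 2419 doublets (16.0%) in library 2 and 1110 (11.1%) in library 1, which were removed. Clustering used 2000 variable genes without the 4 genes, 30 components, 15 neighbours and Leiden resolution 1.0 (igraph 0.11.9), without batch integration. Epithelial cells were reclustered with 20 components at resolution 0.5. A name needed 3 detected markers, a mean log2 fold of 0.5 and a margin of 0.25. The members, markers and lists were chosen with earlier results of these data known.

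UMIs were summed per library and group. Log2 ratios have exact conditional binomial intervals, with counts under 3 set to 3 where this brings a ratio nearer to 0 and never past it, and shares have Clopper-Pearson 95% intervals. No p-value was computed, with 1 library per group. Named genes are the 4 genes, list genes with at least 50 CPM in either library, the 5 most similar genes of each member, and a few context genes. S100A2, S100A4, TRPM6, CYP24A1, PTHLH, ORAI3, PKD2, SLC24A1, SLC24A2, MET, SFN and NMU were added after their values were seen, and cluster genes are those of highest fold. The ratio step was tested on simulated data. TMM factors came from edgeR 4.0.16 in R 4.3.3. Sequences of the genes are not used here, and 1 list gene is counted but not reported by name.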

Additional observations from a re-analysis of the deposited data

Results flagged for a closer look

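STC1 differed between cell classes under the same comparison of library 2 with library 1. Its log2 ratio was 2.28 in epithelial-like cells, -0.21 in blood endothelial-like cells and -4.03 in stromal fibroblast-like cells. The difference between the classes was not tested, because each library is 1 sample. Signal also lay in barcodes that the comparisons left out, nearly all of them called doublets. In library 2 these held 17 UMIs of S100G, 49 of TRPV5, 188 of STC1 and 3403 of SLC24A4, and in library 1 they held 20 UMIs of S100G, 159 of STC1 and 6 of SLC24A4. Of the library 2 barcodes left out, 12 had at least 10 UPTI UMIs, and these held 33 of the TRPV5 and 20 of the STC1 UMIs.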

How the results depend on the processing

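Of 204 recomputed values for 20 results, 182 stayed close, 20 moved and 2, both ratios, changed sign. The median log2 ratio of the calcium list counted as close throughout, though it ran from -0.12 to 0.38. Without the luminal-like subclusters the epithelial-like log2 ratio of TRPV5 was -0.97 and that of STC1 -0.077. Those cells hold most of the epithelial-like UMIs of both genes in library 2. Few library 1 cells then had either gene, so no direction is read from these values. For S100G the ratio was -4.34 with cells weighted equally and -3.44 with cells thinned to 1000 UMIs. The thinned ratio rests on 10 UMIs in library 2 and 6 UMIs in library 1. Thinning left 0 UMIs of TRPV5, STC1 and SLC24A4 in library 1 epithelium, so no thinned ratio is given for them, nor for the luminal-like ratios. In the calcium list, thinning gave 12 genes higher and equal weights gave 22 genes lower. The limit on the floor of 3 UMIs was set after seeing the data, and without it 14 list genes were lower, SLC24A1 being the added one. Shares of epithelial-like cells of library 2 thinned to 1000 UMIs were 0.274% for S100G, 0.878% for TRPV5, 0.659% for STC1 and 27.3% for SLC24A4, and in library 1 they were 1.99% for S100G and 0% for the other 3. Without cluster 0, library 2 shares were 2.36% for TRPV5, 1.80% for STC1 and 57.83% for SLC24A4, and the stricter filter of 1000 UMIs and 500 genes gave 57.80% for SLC24A4. Without the luminal-like cells, library 2 shares were 0.678% for TRPV5 and 0.491% for STC1. Clustering each library on its own gave library 1 shares of 36.8% for S100G and 12.6% for TRPV5. The settings that leave out cells were chosen after seeing the data. No paired analysis was possible because each group is 1 library. Counts under 20 UMIs limit TRPV5, STC1 and SLC24A4 in library 1 epithelium, the same 3 genes in its luminal-like cells, and S100G and SLC24A4 in library 2 luminal-like cells. They also limit the thinned S100G ratio.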

Other observations

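The vitamin D receptor gene VDR, scarce in the epithelium with 20 UMIs in library 2 and 1 UMI in library 1, was found mainly in macrophage-like cells, at 52.9 CPM (112 UMIs) in library 2 and 10.4 CPM (7 UMIs) in library 1, a class that also carried SLC24A4.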
